A study of Mus musculus with 10 samples.

Results

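The mitochondrial genome of the mouse was examined in colonic intestinal epithelial cells (IECs) through the 37 of 55487 genes of the expression table whose symbol begins with mt-. They are 13 mRNAs, 2 rRNAs (mt-Rnr1 and mt-Rnr2) and 22 tRNAs, which is every gene annotated on the mitochondrial chromosome, and they were chosen by name alone. RNA came from 5 wild type (WT) and 5 RhoB-/- mice, both on the C57BL/6J strain, with 1 library per mouse. The labels give no treatment and no age for either group, and by the default of the methods the mice were young adults, some weeks old. RhoB-/- mice carry a constitutive deletion of Rhob, a small GTPase gene, in all tissues. By the methods they were generated at a model organism centre, whereas WT mice were bought from another supplier, so genotype and the source of the mice cannot be told apart. IECs were shaken off the colon in EDTA and DTT without sorting, and the epithelial markers Vil1, Cdx2 and Krt20 were present in every library. Values are TPM, a level per unit of transcript length relative to the library total, and the sequencing depth behind them is unknown.

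Mitochondrial DNA is a small circular chromosome present in many copies per cell. It is transcribed from both strands as long precursors, and cutting at the tRNAs that lie between the genes releases the mRNAs and rRNAs. The mRNAs encode core subunits of NADH dehydrogenase (complex I), cytochrome bc1 (complex III), cytochrome c oxidase (complex IV) and ATP synthase (complex V), while the remaining subunits and all proteins that copy and transcribe this DNA are encoded in the nucleus. Absorptive colonocytes depend on mitochondrial oxidation of butyrate for energy.

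Parts of the mitochondrial genome also exist as copies in the nuclear chromosomes, and these copies decide how the levels can be read. Transcript sequences of the GENCODE M21 annotation on GRCm38 were compared, and 16 nuclear pseudogenes matched a mitochondrial mRNA gene at 90% identity or more. Of these, 8 had a mean TPM of at least 1, and 5 were listed at 0 in every library. A block of 4663 bases on the minus strand of chromosome 1 (24611535 to 24616197) holds 7 of them. The pseudogenes Gm28661 (mt-Co2), Gm28437 (mt-Co3), Gm10925 (mt-Atp6) and Gm10222 (mt-Nd4l) were identical to the mitochondrial gene over their whole length. The following stretches of 80 bases, from GRCm38 and written on the coding strand, show how little separates gene and copy. The first pair is the start of mt-Co2 (chrM:7013-7092, plus strand) and of Gm28661 (chr1:24615486-24615565, minus strand), which do not differ at any base. The other set is a stretch of mt-Co1 (chrM:6390-6469, plus strand) with Gm29216 (chr1:24616109-24616188, minus strand) and Gm13340 (chr2:22588506-22588585, minus strand), in which capitals mark the bases that differ from mt-Co1.
mt-Co2: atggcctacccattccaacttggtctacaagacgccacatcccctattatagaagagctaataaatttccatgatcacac
Gm28661: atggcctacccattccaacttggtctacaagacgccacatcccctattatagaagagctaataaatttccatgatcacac
mt-Co1: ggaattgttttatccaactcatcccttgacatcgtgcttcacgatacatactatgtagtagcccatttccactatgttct
Gm29216: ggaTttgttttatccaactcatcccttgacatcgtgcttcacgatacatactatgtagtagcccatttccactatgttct
Gm13340: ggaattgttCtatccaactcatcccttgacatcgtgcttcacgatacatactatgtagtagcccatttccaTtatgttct
Counted from 1 at the first base of mt-Co1, Gm29216 carries A1066T, its only mismatch over the 483 aligned bases. Gm13340 carries T1072C and C1134T in this stretch and 37 mismatches over 1545 bases.

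The deposited values divide the signal of these sequences between gene and copy. Gm28661 had a mean TPM of 40677 over the 10 libraries and was the third most abundant gene of the table, whereas mt-Co2 had 589.8 to 1070 in WT and 143.1 to 842.4 in RhoB-/- libraries. Among the 12 most abundant genes, 4 were mitochondrial (mt-Atp8, mt-Co1, mt-Cytb and mt-Nd1) and 5 were nuclear copies (Gm28661, Gm28437, Gm10925, Gm29216 and Gm10222). When each copy was added to its mitochondrial gene in proportion to length, mt-Co2 itself held 0.55% to 2.40% of the sum, mt-Atp6 2.84% to 6.61% and mt-Co3 3.20% to 9.27%. For mt-Nd4l the gene held 13.2% to 28.7%, for mt-Nd3 38.2% to 75.6% and for mt-Co1 83.7% to 87.7%. Between the genotypes, none of these 6 percentages passed an exact permutation test (lowest p = 0.0556, for mt-Nd4l). Reads that fit both sequences equally cannot be assigned to one of them, so levels of mt-Co2, mt-Co3, mt-Atp6, mt-Nd4l and mt-Nd3 are uncertain as deposited. Results are therefore given as deposited and with the copies added by length. The copy of mt-Nd4 on chromosome 1, Gm28439, is identical to the gene over 876 bases and was listed at 0 in every library, and no separate copy of mt-Atp8 was found in the annotation.

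The targeted gene, Rhob, had a TPM of 170.5 to 388.7 in WT libraries and of 0.09, 0.10, 0.35 and 0.57 in RhoB-/- replicates 1 to 4, but of 110.9 in the library labelled RhoB-/- replicate 5. That library is kept in its labelled group. Among the other genes that move with genotype, Sprr2a2 alone took 1.28% to 2.08% of TPM in WT and 4.24% to 6.75% in RhoB-/- libraries. At an adjusted p below 0.05 (limma), 13.5% of all 12870 tested genes were lower and 7.73% higher in RhoB-/- mice. Of 12 absorptive colonocyte markers 6 were higher and 1 lower, and of 16 proliferation markers 4 were lower. Of 15 leukocyte markers 6 passed the TPM filter and 5 of those were higher, with a summed TPM over the 15 of 6.83 to 13.6 in WT and 22.9 to 41.5 in RhoB-/- libraries. The filter is a mean TPM of at least 1 over all libraries. Cd8a (WT mean 0.832 TPM, called higher) and Lyz2 (0.868, not called) passed it only through their RhoB-/- values. The 14 stromal, muscle and endothelial markers summed to 5.59 to 8.04 and 8.13 to 38.9 TPM. In a stress list of 14 genes (heat shock and immediate early), 5 were lower in RhoB-/- mice, led by Hspa1a and Hspa1b. The part of these differences in the results below was not tested. In RNA of a mixed cell population, fewer cells of a type and less RNA per cell cannot be told apart.

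The mitochondrial genes took a large part of each library. Their share of TPM was 26.5%, 17.5%, 18.0%, 18.1% and 20.3% in WT replicates 1 to 5 and 19.4%, 22.4%, 10.3%, 17.1% and 12.1% in RhoB-/- replicates 1 to 5. RhoB-/- replicates 3, 4 and 5 lay below every WT library, replicate 4 only just, while RhoB-/- replicates 1 and 2 lay among the WT libraries. The means were 20.1% ± 3.75 (SD, n = 5) and 16.3% ± 5.03 (SD, n = 5), a difference of -3.81 percentage points that did not pass an exact two-sided permutation test with all 252 labellings of the libraries (p = 0.222). The smallest p that this test can give is 0.00794. The nuclear copies took a further 14.2% ± 2.38 of TPM in WT and 11.7% ± 3.69 in RhoB-/- libraries (SD, n = 5 each). Genes and copies together made up 34.3% ± 6.12 and 28.0% ± 8.68 (SD, n = 5 each), again without passing the test (exact permutation p = 0.222). The difference in the share of the genes was -2.20 points without WT replicate 1, the library of highest share, -2.32 without RhoB-/- replicate 3 and -2.77 without RhoB-/- replicate 5.

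**Figure D1:**
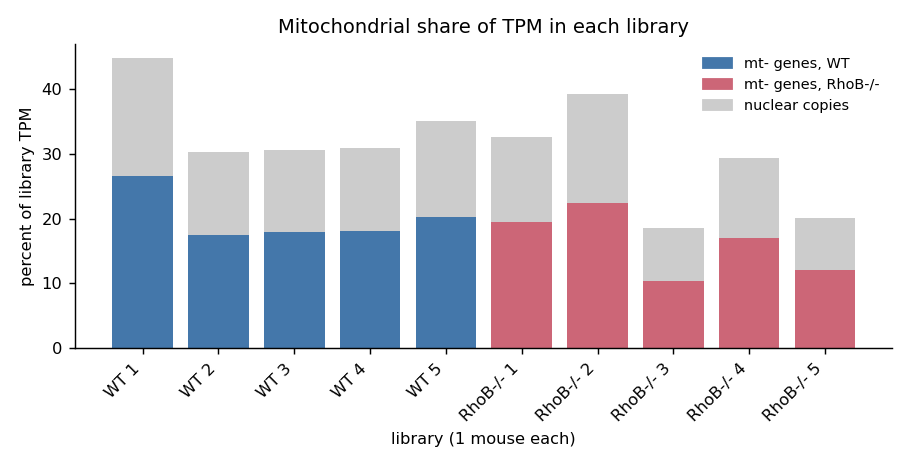
Percent of the TPM of each library (vertical axis) held by mitochondrially encoded genes (blue, WT; red, RhoB-/-) and by their nuclear copies (grey, stacked on top), 1 bar per mouse. The coloured bars run from 17.5% to 26.5% in WT and from 10.3% to 22.4% in RhoB-/- libraries and overlap between the genotypes.

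The 22 tRNAs, of 59 to 75 bases, were listed at 0 in every library. The remaining 15 genes were detected throughout and all passed the filter on low values, a mean TPM of at least 1. The order that follows is one of TPM and not of transcript number, since mt-Atp8 and mt-Atp6 share a transcript yet differ in TPM. With the copies added, mt-Atp8 had the highest TPM in WT mice at 95917 ± 18502 (SD, n = 5). Each of its WT values exceeded each WT value of mt-Co1, which followed at 64193 ± 12011. Then came mt-Co2 (45350 ± 8695), mt-Co3 (34514 ± 6338) and mt-Atp6 (27004 ± 4706), whose neighbours overlapped in WT libraries. All WT values of mt-Atp6 lay above those of mt-Nd4l (13869 ± 3902), which began a group with mt-Cytb (11901 ± 2492), mt-Nd1 (8380 ± 1584), mt-Nd3 (7590 ± 1727) and mt-Nd4 (5831 ± 1284) in which each neighbour overlapped the next. All WT values of mt-Nd4 lay above those of mt-Nd2 (2539 ± 517.2). The lowest levels were those of mt-Nd5, mt-Rnr1, mt-Nd6 and mt-Rnr2, between 2464 and 1451 TPM, with overlap between neighbours. The order from complex IV and V mRNAs down to complex I mRNAs was thus seen only after the copies were added: as deposited, mt-Co2, mt-Atp6 and mt-Co3 ranked below mt-Nd4.

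**Figure D2:**
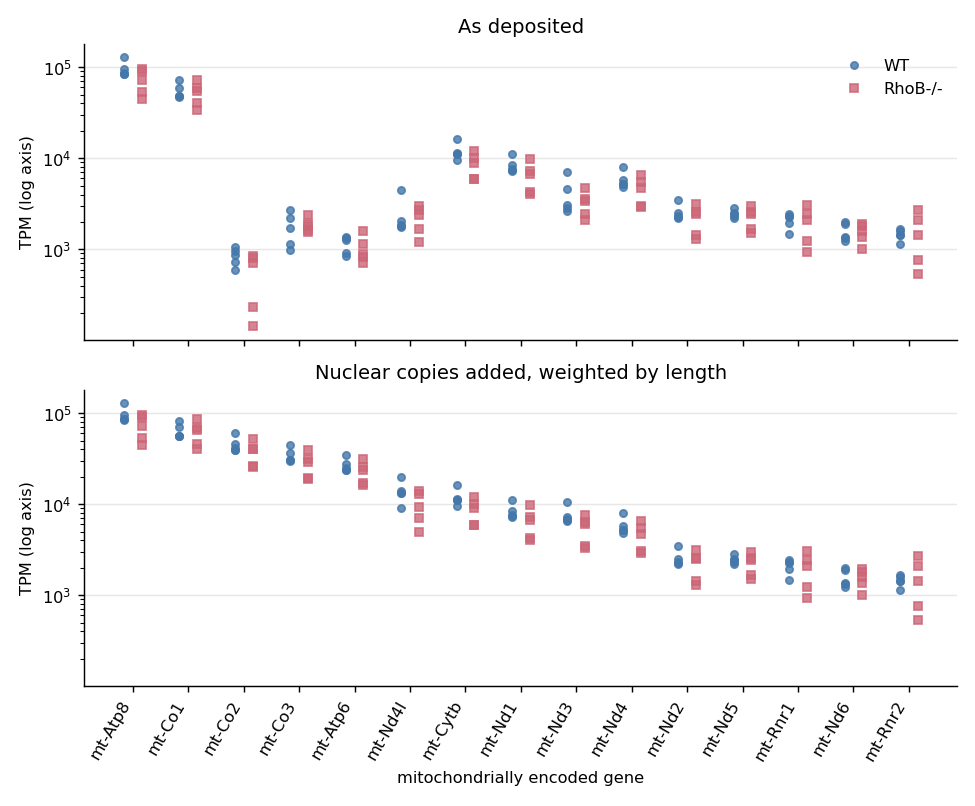
TPM (vertical log axis) of the 15 detected mitochondrial genes in each library, as deposited (upper panel) and with nuclear copies added by length (lower panel), ordered by the WT mean of the lower panel. Blue circles are WT and red squares RhoB-/- mice (5 each); the values of the genotypes overlap for every gene in both panels, and mt-Co2, mt-Co3 and mt-Atp6 move most between the panels.

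None of the 13 mRNAs and neither rRNA changed between the genotypes at an adjusted p below 0.05 (limma on log2(TPM + 1), Benjamini-Hochberg over 12870 genes), where 13.5% of all tested genes were lower and 7.73% higher. At an unadjusted p below 0.05, only mt-Cytb was lower (1 of 13 mRNAs, against 24.9% of all tested genes). For 12 of the 13 mRNAs the log2 fold change was negative, with a median of -0.26 and a range of -0.91 (mt-Co2) to 0.17 (mt-Co3). Centring each library on its median deviation left 10 negative, as did leaving out RhoB-/- replicate 3. Over all tested genes the median was -0.13, and 9 of the 13 mRNAs lay below it. The share of all tested genes with a negative value is not given here. With the copies added, the log2 fold changes of all 13 mRNAs were negative, and 11 lay below the median of all tested genes. Their median was -0.36, with a range of -0.57 (mt-Nd4l) to -0.05 (mt-Nd6) and no adjusted p below 0.120 (limma). The median as deposited was -0.12 without RhoB-/- replicate 3 and without RhoB-/- replicate 5, -0.16 without WT replicate 1 and -0.41 without RhoB-/- replicate 2. The median over all tested genes in these fits was -0.17, -0.15, -0.16 and -0.079, in the same order. Of the 13 mRNAs, 5 lay below that median without RhoB-/- replicate 3 and 6 without RhoB-/- replicate 5. The numbers were 7 without WT replicate 1 and 12 without RhoB-/- replicate 2. WT and RhoB-/- values overlapped for all 15 genes, whereas 8.55% of all tested genes had every RhoB-/- value below every WT value and 5.97% the reverse.

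The spread between mice was shared by the genes. WT replicate 1 held the highest WT value of 11 of the 15 genes, and RhoB-/- replicate 2 the highest RhoB-/- value of 14. RhoB-/- replicate 3 held the lowest RhoB-/- value of 10 genes and RhoB-/- replicate 5 that of the other 5. The lowest RhoB-/- value of every gene thus came from either RhoB-/- replicate 3 or RhoB-/- replicate 5.

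Complex I, which passes electrons from NADH to ubiquinone, has 7 mitochondrial subunits. The mRNA of mt-Nd1 (chromosome M, 2751 to 3707) stood at 11109, 7316, 7496, 7563 and 8414 TPM in WT and at 7197, 9781, 4233, 6726 and 4023 TPM in RhoB-/- libraries. WT replicates 2 to 5 were close together, and only RhoB-/- replicates 3 and 5 lay far below them. Its log2 fold change was -0.45 (SE 0.24, adjusted p = 0.195, limma), a fold change of 0.73 with a 95% interval of 0.51 to 1.05. The log2 fold changes of mt-Nd4 (10167 to 11544), mt-Nd2 (3914 to 4951) and mt-Nd5 (11742 to 13565), which encode the proton-pumping subunits of the membrane arm, were -0.41, -0.28 and -0.18. Without 1 library they ran from -0.56 (RhoB-/- replicate 2 left out) to -0.27 (RhoB-/- replicate 3) for mt-Nd4, from -0.43 (RhoB-/- replicate 2) to -0.11 (RhoB-/- replicate 5) for mt-Nd2 and from -0.31 (RhoB-/- replicate 2) to -0.053 (RhoB-/- replicate 3) for mt-Nd5. Without WT replicate 1 or RhoB-/- replicate 3 mt-Nd2 stood at -0.16 and -0.15, and without RhoB-/- replicate 5 mt-Nd5 stood at -0.092. For mt-Nd3 (9459 to 9806) it was -0.26 as deposited and -0.56 with its copy added (adjusted p = 0.124), and for mt-Nd4l (9877 to 10173) -0.10 and -0.57 (adjusted p = 0.175). Without WT replicate 1 the values as deposited were -0.033 and 0.15. The only mRNA read from the minus strand, mt-Nd6 (13552 to 14070), had 1338, 1244, 1910, 1373 and 2015 TPM in WT and 1585, 1919, 1357, 1787 and 1009 TPM in RhoB-/- libraries, all but the last within the WT range. Its log2 fold change was -0.05 (SE 0.20). The 3′ ends of mt-Nd6 and mt-Nd5 overlap on opposite strands, and without strand their reads cannot be told apart there. The methods state alignment in an orientation mode, and whether quantification used strand is not given in the sources used here.

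Cytochrome b, the haem-bearing core of complex III, is encoded by mt-Cytb (14145 to 15288). Its TPM was 16137, 11429, 9509, 11199 and 11232 in WT and 9981, 12012, 5966, 8971 and 5852 in RhoB-/- libraries. RhoB-/- replicate 2 exceeded 4 of the 5 WT values. Its log2 fold change was -0.51 (SE 0.22, unadjusted p = 0.0424, adjusted p = 0.122, limma).

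The catalytic subunit of complex IV, where oxygen is reduced, is encoded by mt-Co1 (5328 to 6872). Its TPM was 72165, 48600, 47561, 48720 and 59813 in WT and 58857, 72483, 33486, 54953 and 40455 in RhoB-/- libraries. RhoB-/- replicates 1, 2 and 4 lay above WT replicates 2, 3 and 4. The log2 fold change was -0.12 (SE 0.23) as deposited and -0.11 with the copies. The other core subunits, mt-Co2 (7013 to 7696) and mt-Co3 (8607 to 9390), had opposite log2 fold changes as deposited, -0.91 (SE 0.45, adjusted p = 0.167, limma) and 0.17 (SE 0.26). Without the library labelled RhoB-/- replicate 5 that of mt-Co2 was -0.51. With the copies added they were close to each other at -0.33 (SE 0.22) and -0.36 (SE 0.22).

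The membrane part of ATP synthase holds the products of mt-Atp8 (7766 to 7969) and mt-Atp6 (7927 to 8607). Both are carried on a single transcript, and the genes share 43 bases (chrM:7927-7969, plus strand, GRCm38). This stretch is shown because reads within it fit both genes; capitals mark the start codon of mt-Atp6 and the stop codon of mt-Atp8.
mt-Atp8/mt-Atp6 overlap: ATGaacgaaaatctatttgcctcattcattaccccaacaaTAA
The TPM of mt-Atp8 was 128185, 84669, 85319, 86526 and 94883 in WT and 90922, 95582, 44352, 72292 and 53709 in RhoB-/- libraries. RhoB-/- replicates 1 and 2 lay within the WT range and the other 3 below it. The log2 fold change was -0.47 (SE 0.24, adjusted p = 0.177, limma). For mt-Atp6 it was -0.18 as deposited (-0.060 without RhoB-/- replicate 3, -0.35 without RhoB-/- replicate 4) and -0.27 (SE 0.20) with its copy. With the copy added, mt-Atp8 still stood at 95917 against 27004 TPM for mt-Atp6 in WT mice, although they share a transcript. At 204 bases mt-Atp8 is the shortest of the 13 mRNA genes, and TPM is a level per unit of length.

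The rRNAs of the mitochondrial ribosome had a low TPM in these libraries. The part of library preparation in this level was not tested. The small-subunit rRNA mt-Rnr1 (70 to 1024) had 1475 to 2415 TPM in WT and 940.4 to 3063 TPM in RhoB-/- libraries, and the large-subunit rRNA mt-Rnr2 (1094 to 2675) had 1131 to 1684 and 537.4 to 2699 TPM. For both rRNAs the RhoB-/- values spread to either side of the WT range. The log2 fold changes were -0.20 (SE 0.29) and -0.18 (SE 0.38). The rRNAs made up 1.82% ± 0.354 of the mitochondrial TPM in WT and 2.05% ± 0.566 in RhoB-/- libraries (SD, n = 5 each, exact permutation p = 0.460).

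**Figure D3:**
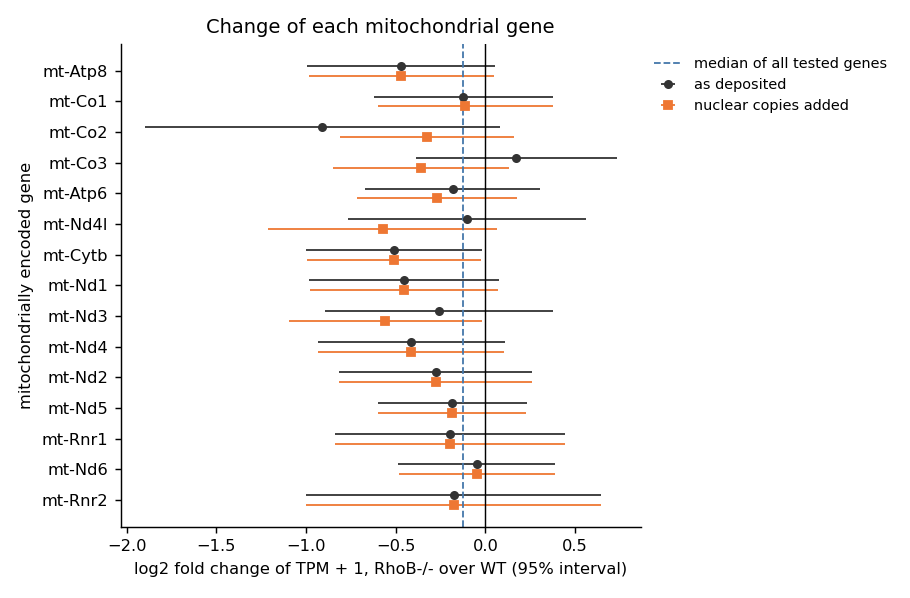
Log2 fold change of TPM + 1 (horizontal axis, RhoB-/- over WT, bars 95% interval of limma) for the 15 detected mitochondrial genes, as deposited (black circles) and with nuclear copies added (orange squares). The dashed line is the median of all tested genes, -0.13; with the copies added the mRNA values draw together between -0.57 and -0.05.

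Within the mitochondrial mRNA pool, the share of mt-Co1 and, as deposited, that of mt-Atp8 separated the genotypes, whereas the size of the pool did not. As deposited, the separation of mt-Co1 was no longer complete once mt-Atp8 was left out of the total. The shares of the other mRNAs overlapped. Among all tested genes, the TPM of 8.55% was lower and of 5.97% higher in RhoB-/- mice without overlap. As a percent of the summed TPM of the 13 mRNAs, mt-Co1 was 27.8%, 28.5%, 27.7%, 28.2% and 30.5% in WT and 31.2%, 33.5%, 33.1%, 33.4% and 34.3% in RhoB-/- libraries. Every RhoB-/- library exceeded every WT library. The means were 28.5% ± 1.15 and 33.1% ± 1.15 (SD, n = 5 each), a difference of 4.57 percentage points (exact permutation, two-sided p = 0.00794, the smallest possible). With the copies added, mt-Co1 rose from 19.99% ± 0.751 to 23.45% ± 0.765 of the pool (SD, n = 5 each, exact permutation p = 0.00794), also without overlap.

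The share of mt-Atp8 moved the other way. It was 49.4%, 49.7%, 49.7%, 50.0% and 48.4% in WT and 48.2%, 44.2%, 43.9%, 43.9% and 45.5% in RhoB-/- libraries, so that the groups were separate by a narrow gap between WT replicate 5 and RhoB-/- replicate 1. The difference was -4.29 points (exact permutation p = 0.00794), and -2.49 points with the copies added (p = 0.0238), where RhoB-/- replicate 1 at 29.8% lay inside the WT range of 29.0% to 30.2%. Shares of a whole depend on each other. As deposited but with mt-Atp8 left out of the total, the difference for mt-Co1 was 3.93 points (exact permutation p = 0.0159). That p is above the smallest possible, so the genotypes were no longer fully separate. With mt-Co1 left out, that for mt-Atp8 was -1.71 points (exact permutation p = 0.143), which no longer passed. Among nuclear protein-coding genes, the median log2 fold change was -0.15 for the 77 whose longest transcript is under 500 bases and between -0.15 and -0.11 in the 4 longer classes. The shortest class is not divided further, so it does not single out genes as short as mt-Atp8 (204 bases). An effect of length on the mt-Atp8 share was not tested. Over the 13 mRNAs, Spearman's rho between gene length and log2 fold change was -0.088 as deposited and 0.429 with copies added, given as a description since the genes share libraries and precursors.

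Of the 13 shares tested, 3 had an unadjusted exact p below 0.05 as deposited and 4 with the copies added. The further ones were mt-Cytb, which fell by 0.70 points as deposited (6.13% ± 0.493 to 5.43% ± 0.346, SD, n = 5 each, exact permutation p = 0.0476) and by 0.42 with the copies (p = 0.0238), and mt-Nd3 with its copy, which fell by 0.33 points (exact permutation p = 0.0476). The p-values are not adjusted for the 13 genes. By respiratory complex, the complex IV mRNAs held 29.9% ± 1.07 of the pool in WT and 34.7% ± 1.22 in RhoB-/- libraries, and the complex V mRNAs 50.0% ± 0.587 and 45.8% ± 1.80 (SD, n = 5 each, exact permutation p = 0.00794 for both). With the copies the changes were from 44.9% to 48.4% (exact permutation p = 0.0159) and from 38.3% to 36.3% (p = 0.0238). These changes restate those of mt-Co1 and mt-Atp8 and were not shared by the other mRNAs of either complex. With the copies, mt-Co2 held 14.12% in WT and 14.28% in RhoB-/- libraries, and mt-Co3 10.75% and 10.62%. The share of mt-Atp6 went from 8.43% to 8.88%, opposite to that of mt-Atp8. Complex I mRNAs held 14.0% ± 0.653 and 14.1% ± 0.958 (exact permutation p = 0.881) as deposited. With the copies they held 13.1% ± 0.571 and 12.1% ± 0.634 (exact permutation p = 0.0556). As deposited but with mt-Atp8 left out of the total, the difference was -1.97 points (exact permutation p = 0.0397), so the direction for complex I depends on the total. The minus-strand mRNA mt-Nd6 held 0.836% ± 0.239 and 1.002% ± 0.215 (exact permutation p = 0.286).

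**Figure D4:**
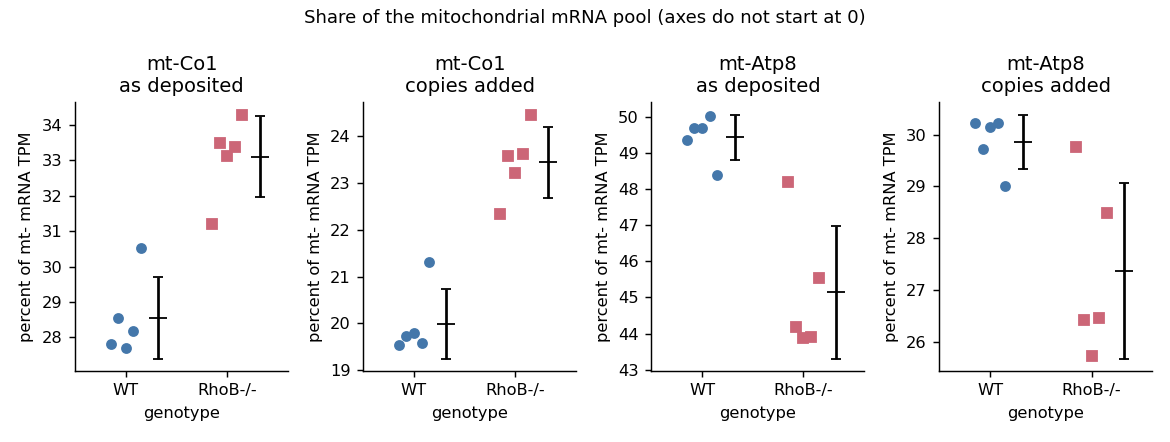
Share of mt-Co1 and mt-Atp8 in the summed TPM of the 13 mitochondrial mRNAs (vertical axes in percent, not starting at 0), as deposited and with nuclear copies added. Points are mice (blue, WT; red, RhoB-/-) and black bars the mean ± SD; mt-Co1 is higher in all 5 RhoB-/- mice in both panels, while mt-Atp8 is separate as deposited and overlaps with the copies added.

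The ratio of mt-Co1 to each of the other 12 mRNAs within each library does not depend on the size of the pool. As mt-Co1 was chosen after its share was seen, these ratios restate that difference gene by gene and are given with no test. With the copies added, the mean log2 ratio was higher in RhoB-/- mice for 11 of the 12 mRNAs, without overlap for 6 (mt-Nd1, mt-Co2, mt-Atp8, mt-Co3, mt-Nd4 and mt-Cytb). It differed by 0.40 for mt-Cytb, 0.36 for mt-Atp8, 0.34 for mt-Nd1 and 0.21 for mt-Co2. The smallest differences were 0.07 for mt-Nd5 and -0.06 for mt-Nd6. As deposited, where mt-Co2, mt-Atp6, mt-Co3, mt-Nd3 and mt-Nd4l are divided with their copies, 9 of the 12 ratios were higher, 4 of them without overlap (mt-Nd1, mt-Atp8, mt-Nd4 and mt-Cytb).

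At an adjusted p below 0.05, the share of lower genes among nuclear genes that transcribe, process or stabilise mitochondrial RNA was near that of all tested genes. Of 33 tested genes of this list, 6 were lower (18.2%, against 13.5% of all tested genes) and 0 higher, with a median log2 fold change of -0.28 against -0.13 for all. At an unadjusted p below 0.05, 13 of the 33 were lower and 0 higher. That is a larger share than the 24.9% of all tested genes that were lower. Tfb2m, the transcription factor that melts the mitochondrial promoter, stood at 15.4 ± 1.59 TPM in WT against 9.56 ± 1.91 TPM in RhoB-/- mice (SD, n = 5 each), with 13.7 as the lowest WT value and 12.2 as the highest RhoB-/- value. Its log2 fold change was -0.65 (SE 0.13, adjusted p = 0.00609, limma). Tfb1m, which dimethylates the small rRNA, fell by 0.64 on the log2 scale (6.15 ± 0.776 to 3.62 ± 0.865 TPM, adjusted p = 0.0106). Both passed in each of the 10 fits that left out a library. Prorp, the nuclease that cuts the 5′ end of tRNAs out of the precursor, fell by 0.54 (adjusted p = 0.0232, limma) and lost its call in 4 of those fits. Lrpprc, which stabilises mitochondrial mRNAs, fell by 0.41 (adjusted p = 0.0494, limma) and lost its call in 8 of the 10 fits. Its partner Slirp had 16.5 ± 2.92 and 16.9 ± 4.23 TPM, the RNA polymerase Polrmt 19.3 ± 3.81 and 14.8 ± 3.88 TPM (adjusted p = 0.158, limma), and the packaging factor Tfam 29.0 ± 3.95 and 27.6 ± 9.27 TPM (SD, n = 5 each).

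Of 20 genes for replication and the nucleoid, 4 were lower (20%) and 1 higher (5%), against 13.5% and 7.73% of all tested genes. Their median log2 fold change was -0.37, against -0.13 for all. At an unadjusted p below 0.05, 11 of the 20 were lower and 1 higher. Here too the share is larger than the 24.9% of all tested genes that were lower. Samhd1, which breaks down deoxynucleotides, rose from 32.9 ± 6.08 to 72.9 ± 17.1 TPM (log2 fold change 1.12, SE 0.18, adjusted p = 0.00169, limma). Atad3a, a membrane ATPase bound to nucleoids, fell by 0.51 (adjusted p = 0.0114, limma), and both passed in all 10 fits without a library. Top1mt, the mitochondrial topoisomerase, and Endog, a nuclease, fell by 0.49 and 0.56 (adjusted p = 0.0244 and 0.0314, limma), with the call lost in 4 and 7 of those fits. Counts in both lists depended on single libraries. Without RhoB-/- replicate 3 there were 13 lower genes in the transcription list and 10 in the replication list. Without the library labelled RhoB-/- replicate 5 there were 3 and 1, and without WT replicate 2 there were 2 and 1, the same numbers as without WT replicate 4. Without RhoB-/- replicate 4 the transcription list had 3. The replication list had 2 without WT replicate 5 or RhoB-/- replicate 2, and 1 without RhoB-/- replicate 1. The share of all tested genes called lower in each of these fits is not given here. Whether the lists moved apart from that share was not tested.

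**Figure D5:**
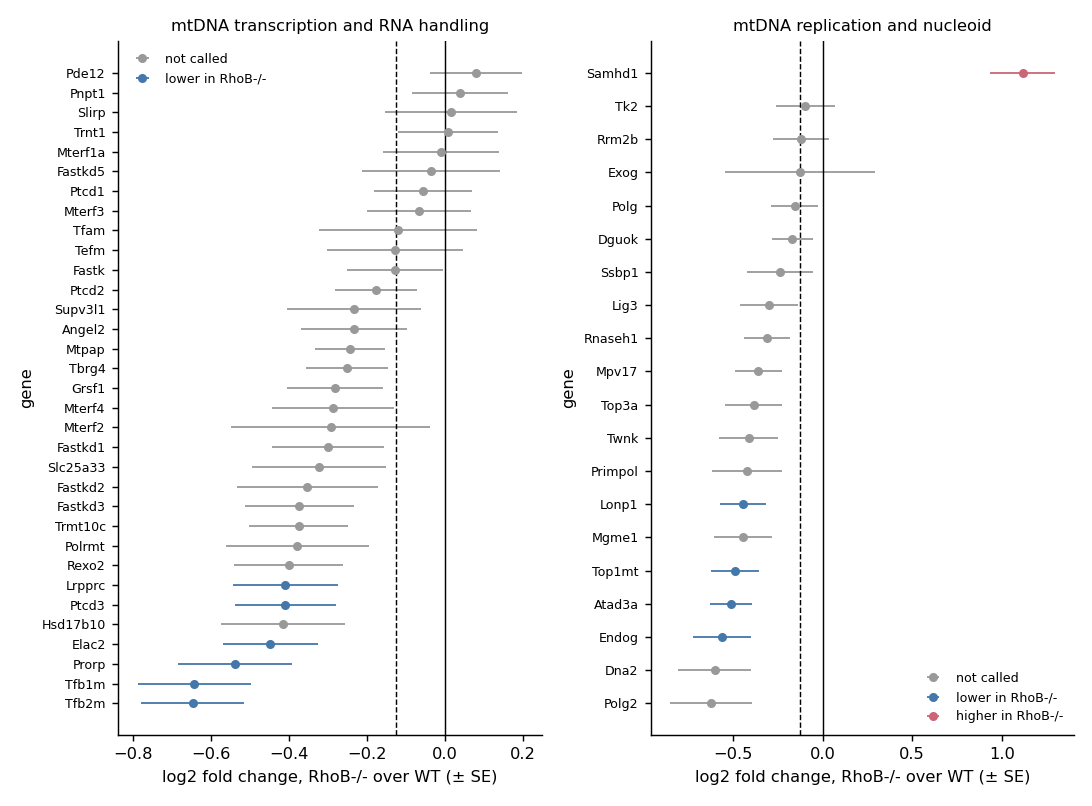
Log2 fold change (horizontal axis, RhoB-/- over WT, bars ± SE) of the tested nuclear genes for mitochondrial transcription and RNA handling (left, 33 genes) and for replication and the nucleoid (right, 20 genes). Blue marks genes lower and red genes higher at an adjusted p below 0.05, grey those not called, and the dashed line is the median of all tested genes; Tfb2m and Tfb1m lie lowest on the left and Samhd1 highest on the right.

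Among 15 nuclear regulators of mitochondrial genes, 1 was higher (Esrra, an orphan receptor for oxidative genes, log2 fold change 0.34, adjusted p = 0.0349, limma) and 1 lower (the deacetylase Sirt3, -0.43, adjusted p = 0.039), and the call was lost in 6 and 8 of the 10 fits without a library. Ppargc1a, a coactivator of mitochondrial biogenesis, had 6.84 ± 2.01 and 6.99 ± 1.38 TPM (SD, n = 5 each). Against the 13.5% lower and 7.73% higher among all tested genes, the nuclear partners of the mitochondrial subunits were counted by complex, assigned by gene name alone. Of 37 genes named as complex I subunits, 1 was lower (2.70%, Ndufa4). Its name does not show which complex holds its product, so the counts of single complexes depend on this placing. Of 9, 13 and 17 genes named for complexes III, IV and V, 0 were higher and 0 lower (limma). At an unadjusted p below 0.05, 0 genes of the 4 complexes were higher, and 2 of complex I and 2 of complex IV were lower. Their medians were 0.03, 0.01, 0.12 and 0.02, above the median of all tested genes. Of 78 mitochondrial ribosomal protein genes, 2 were lower (2.56%, Mrpl19 and Mrps9) with a median of -0.18, and of 18 citrate cycle enzymes 1 was lower (Idh2). Mrpl19 passed in all 10 fits without a library, whereas Ndufa4 lost its call in 3, Idh2 in 5 and Mrps9 in 8. Of 14 tested genes of a mitochondrial stress list (15 rows, since Ddit3 has a pair of them), 3 were lower, namely the matrix chaperonin genes Hspd1 and Hspe1 and Gdf15, a secreted stress cytokine. Gdf15 had 38.5 to 79.2 TPM in WT and 8.11 to 15.9 TPM in RhoB-/- libraries without overlap, a log2 fold change of -2.10 (SE 0.23, adjusted p = 8.91e-05, limma). It passed in all 10 fits without a library, whereas Hspd1 lost its call in 5 and Hspe1 in 9. Hspd1 and Hspe1 are also heat shock genes.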

How the data were processed

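Colonic IEC RNA of 10 mice was sequenced, 5 per genotype, and the labels gave each library's genotype and replicate number. By the methods, libraries were made with an Illumina TruSeq RNA kit, and how rRNA was removed is not stated there. Read trimming by the authors used SeqPrep and Sickle, alignment HISAT2 in an orientation mode, assembly StringTie and quantification RSEM. The submitters' processing notes also name edgeR and the build GRCm38.p6. Tool versions, the annotation release and the strand setting of the quantification are not given in the sources used here. The deposited TPM values of the authors were used unchanged, and library totals were 971419 to 993229. TPM keeps no read depth, so no counting error can be given, and it is relative, so a gene that takes more of a library lowers the others.

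Genotypes were compared with limma 3.58.1 in R 4.3.3 (lmFit, eBayes with trend) on log2(TPM + 1). The filter, a mean TPM of at least 1, left 12870 genes, with Benjamini-Hochberg adjustment and a threshold of 0.05. Fold changes are on that scale and understate changes of low genes. Shares were compared by exact permutation, two-sided, with scipy 1.17.1. The fitting was tested on simulated data. Nuclear copies were found with blastn 2.17.0 between GENCODE M21 transcripts (identity of at least 90%, e-value 1e-10, aligned over at least 30% of the shorter transcript) and added to the gene in proportion to length, a step chosen after the data were seen. Sequences and positions are from GRCm38. The members, gene lists and tests were chosen with earlier results of these data known. Named are every mitochondrial mRNA and rRNA, the most abundant or called tRNAs (all were listed at 0, so none is named), 6 preset nuclear genes (Polrmt, Tfam, Tfb2m, Lrpprc, Slirp, Ppargc1a), Rhob, and up to 3 called genes per direction of each list with the lowest p, and not every one of the last is described. Replicate numbers are shared by both genotypes but belong to different mice.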

Additional observations from a re-analysis of the deposited data

Results flagged for a closer look

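Among 142 groups of 5 values, 8 held a library far from the other 4 of its genotype, where chance gives about 1 in 20, or 7.1. In WT replicate 1 these were mt-Nd1 at 11110 TPM, mt-Nd2 at 3444 TPM, mt-Atp8 at 128200 TPM, mt-Nd4l at 4530 TPM and mt-Cytb at 16140 TPM, each above the other WT libraries (rounded values), in the library with the highest mitochondrial share. Samhd1 in the same library was low at 22.1 TPM, against 34.4 to 36.6 TPM in the other WT libraries. The complex IV share of mitochondrial mRNA TPM was 31.8% in WT replicate 5, against 29.2% to 29.7% in the other WT libraries. Rhob was 110.9 TPM in the library labelled RhoB-/- replicate 5, against 0.09 to 0.57 TPM in the other RhoB-/- libraries.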

How the results depend on the processing

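The call of 0 mitochondrial mRNAs was the same under every alternative run except quantile normalization, which called 1 (mt-Nd1, log2 fold change -0.52, adjusted p = 0.029, limma). The log2 fold change of mt-Co3 turned negative with copies added by length (-0.36), as TPM (-0.36) or by length with rescaling to TPM outside mitochondrial genes and copies (-0.50); centring each library gave 0.013 for mt-Nd4l and 0.067 for mt-Nd6. Rescaling to TPM outside the mitochondrial genes gave -0.057 for Slirp and -0.018 for Ppargc1a, and -0.12 and -0.075 with the copies also outside. Without 1 library, values crossed 0 for mt-Co1 (-0.26 to 0.023), mt-Co3 (-0.0087 to 0.35), mt-Nd4l (-0.23 to 0.15), mt-Nd6 (-0.14 to 0.093), mt-Rnr1 (-0.39 to 0.033), mt-Rnr2 (-0.45 to 0.13), Tfam (-0.25 to 0.016), Slirp (-0.094 to 0.11), Ppargc1a (-0.047 to 0.17) and the complex I share (-0.080 to 0.43 points), none past its test. That share differed by -1.03 points with copies and -1.97 without mt-Atp8. Lower genes numbered 3, 10, 15, 3 and 21 in the transcription list and 1, 6, 12, 2 and 14 in the replication list with no TPM filter, quantile normalization, rescaling outside mitochondrial genes, a replicate block and rescaling outside genes and copies, and 2 to 13 and 1 to 10 without 1 library. The share of all tested genes called lower under each of these settings is not given here, so the counts cannot be set against it. The cause was not tested. The shift of the median over all tested genes was 0.11 with no filter or centring and -0.13 with rescaling outside genes and copies. The mt-Co1 share kept p below 0.05 under the other settings (4.27 to 5.06 points without 1 library), as did mt-Atp8 (-5.06 to -3.98) except without mt-Co1 in the total (-1.71). The replicate block, an exact test by sign flips, left the differences at 4.57 (p = 0.0625) and -4.29 (p = 0.0625), the smallest p that 5 pairs allow. Over all tested genes, correlations of same-numbered mice were -0.0874 to 0.072. They were not set against those of differently numbered mice, so they do not settle whether the numbers pair the mice. Of 754 single-gene values under 21 alternatives, 637 kept direction and side of the threshold, 87 lost and 3 gained a call, and 27 changed sign. Alternatives with copies, mt-Atp8 or mt-Co1 left out and those for nuclear genes were added after seeing the data.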
